A study of Homo sapiens with 8 samples.

Results

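The family described here is the human receptor tyrosine kinases, given as a list of 57 gene symbols and matched to the Ensembl gene identifiers of the files. All 57 had a row among the 20897 genes measured in each library. HepG2, an established human liver cancer line that serves as a model of hepatocytes, was grown with 10% serum. It was moved to 1% serum 24 h after plating, and treated 8 h later for 18 h. DMSO libraries (n = 3) received vehicle alone. Genistein libraries (n = 3) received genistein, given as 10 micromolar in the series design, whereas the treatment protocol prints that figure as millimolar. BMP6 libraries (n = 2) received bone morphogenetic protein 6 at 50 ng/ml, with 1% DMSO present in all wells. Libraries are described as biological replicates of this single line, with nothing on separate cultures, so p-values measure only the spread between these libraries.

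Receptor tyrosine kinases sit in the plasma membrane, bind a ligand outside the cell and phosphorylate tyrosines inside it. Those phosphotyrosines recruit adaptors such as GRB2 and GAB proteins, which feed the RAS to ERK and the PI3 kinase pathways, and the cascades induce their own inhibitors. In hepatocytes the family is known for insulin action (INSR), for regeneration (MET and EGFR) and for the control of bile acid synthesis by FGF19 (FGFR4). Genistein, a soy isoflavone, is known as a competitor of ATP at tyrosine kinases and as an oestrogen receptor ligand. BMP6 signals through serine and threonine kinase receptors, a separate class.

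Levels are FPKM, fragment counts scaled to transcript length and library size, as the authors deposited them, so genes can be compared per length. The depth of the libraries is unknown, and FPKM totals ran from 1704599 to 3105197 per library. Tested genes listed at 0 numbered 1679 in DMSO 1 and 2167 in genistein 2, and 356 to 962 in the remaining libraries. None of the receptors carried a failed status in any library, but an exact 0 may still be a failed estimate, so such genes are described as listed at 0. The hepatocyte markers of the line were present in every library, with ALB between 17949 and 143115 FPKM. Among the other cell types, 2 of 6 endothelial and 2 of 6 blood markers with a row were at 0 in all 8 libraries. So were 5 of 7 fibroblast or stellate, 2 of 5 neural and 1 of 5 bile duct markers. PTPRC of blood cells and the collagens COL1A1, COL1A2 and COL3A1 of fibroblasts were at 0 throughout. CDH5 and VWF of endothelium were at 0 in all but BMP6 1, where they were at 1.01 and 0.697 FPKM. ACTA2 of the fibroblast or stellate list stood at 129.9 to 263 FPKM and MBP of the neural list at 8.39 to 39.8 FPKM. Markers called after genistein were TTR of hepatocytes, SOX9 of bile ducts, LYZ and CD68. TTR went from 7848 to 1307 FPKM (limma adjusted p = 0.0193) and SOX9 from 979 to 198 FPKM (limma adjusted p = 0.0179). LYZ went from 4216 to 1419 FPKM (limma adjusted p = 0.0448) and CD68 from 34.8 to 79.9 FPKM (limma adjusted p = 0.0406). Of the 8 hepatocyte markers 3 had positive and 5 negative differences. ALB stood higher, at 17949 to 40448 FPKM in DMSO and 45780 to 61916 FPKM after genistein. APOA1 stood lower, at 50517 to 58896 FPKM in DMSO and 3983 to 12742 FPKM after genistein. Neither overlapped between these groups and neither passed. Summed over each list, the blood markers stood at 3250 to 4859 FPKM in DMSO, 1242 to 1957 after genistein and 1562 to 2407 after BMP6. The endothelial markers summed to 3.62 to 6.78 FPKM in DMSO, 12.5 to 22.7 after genistein and 5.54 and 15.8 after BMP6, most of it ESAM. The blood sum was nearly all LYZ, while CD68 rose and CD14 stood at 0 to 19.3 FPKM in DMSO and 23.9 to 74.4 after genistein without passing. The bile duct markers summed to 1471 to 2256, 526 to 1118 and 314 to 2115 FPKM in the same order. Of that list KRT19 went the other way from SOX9 in mean, at 286 ± 65.7 FPKM in DMSO and 460.2 ± 230.3 after genistein (SD, n = 3 each), with overlap, and it was 1645 FPKM in BMP6 2. The calls of TTR, SOX9, LYZ and CD68 were each lost without DMSO 2, DMSO 3 or any 1 genistein library. The part of these markers in the receptor results was not tested.

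Of the 57 receptors, 28 were above 0 in at least 1 library and 29 were listed at 0 in all 8. The receptors listed at 0 throughout were ERBB4, INSRR, PDGFRA, KIT, CSF1R, FLT3, FLT1, KDR, FLT4, NTRK2, ROR2, MUSK, TEK, EPHA3, EPHA4, EPHA5, EPHA6, EPHA7, EPHA8, EPHA10, EPHB1, EPHB3, EPHB6, RET, DDR2, LTK, ALK, ROS1 and STYK1. They include all 3 VEGF receptors and 7 of the 9 EPHA receptors. EPHB2 and NTRK3 were below 1 FPKM wherever they were above 0. The remaining 26 had at least 1 FPKM in at least 2 libraries and were tested. FGFR2 and ROR1 met that minimum only in DMSO and TIE1 only in genistein, so the minimum itself favours a difference for those genes. The counts and medians over tested receptors given here are therefore a description.

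In vehicle-treated cells 3 receptors stood far above the rest. ERBB3, the receptor of neuregulins whose own kinase is weak and which signals with a partner such as ERBB2, stood at 586, 745 and 517 FPKM in DMSO 1, 2 and 3. FGFR3 stood at 345, 405 and 508 FPKM and FGFR4, the hepatocyte FGF19 receptor, at 339, 389 and 455 FPKM. ERBB3 was the highest receptor in every DMSO library, and FGFR3 and FGFR4 overlapped each other. PTK7, a WNT co-receptor with an inactive kinase, ERBB2, INSR and EPHB4 followed, each with a DMSO mean between 131 and 227 FPKM. The collagen receptor DDR1 and FGFR1 stood at 87.2 ± 6.43 and 92.4 ± 32.7 FPKM in DMSO (SD, n = 3 each). MET, the HGF receptor, and EGFR were lower, at 31.9 ± 8.83 and 21.8 ± 12.8 FPKM.

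**Figure D1:**
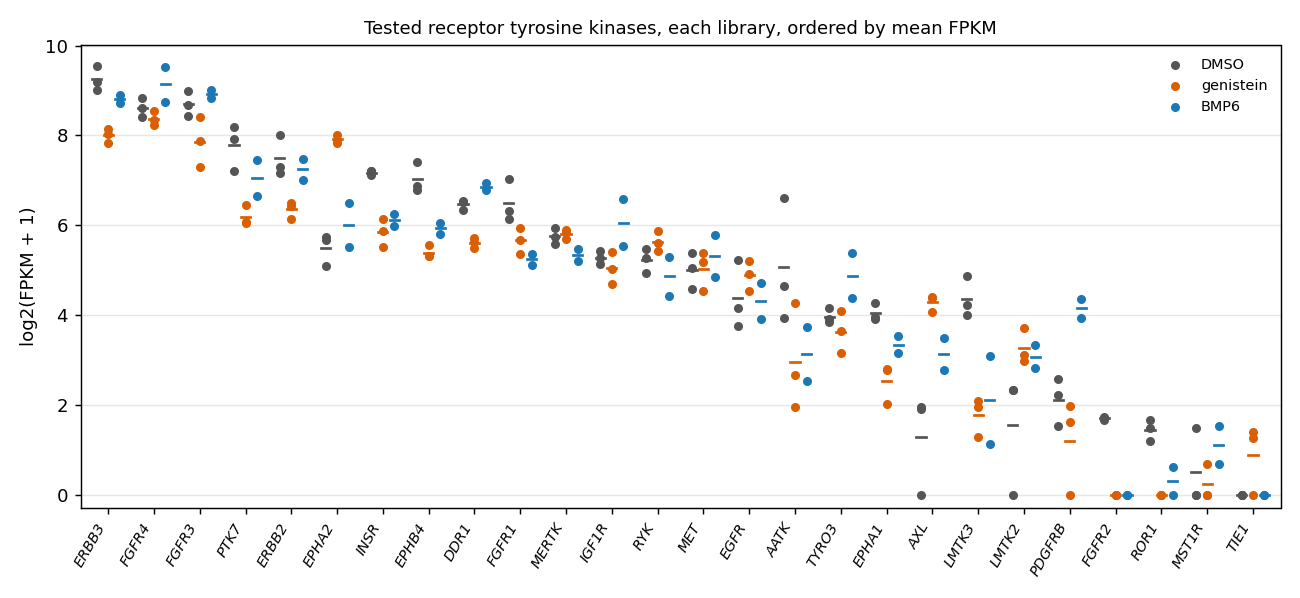
Level of each tested receptor in every library, as log2(FPKM + 1) on the vertical axis, with receptors ordered from left to right by mean FPKM. Points are libraries and bars are group means (DMSO, n = 3, genistein, n = 3, BMP6, n = 2). EPHA2 and AXL stand higher in all genistein libraries than in all DMSO libraries, and ERBB3, PTK7, INSR and EPHB4 stand lower.

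Genistein against DMSO asks how the vehicle-treated pattern of receptors differs after a tyrosine kinase inhibitor. EPHA2 and AXL rose, 7 receptors fell (EPHB4, INSR, LMTK3, ERBB3, PTK7, FGFR2 and EPHA1), and 17 did not pass. Calls are by limma on log2(FPKM + 1) at a Benjamini-Hochberg adjusted p under 0.05 over all 12661 tested genes. Of all tested genes 6.11% were called higher and 5.96% lower, beside 7.69% and 26.9% of the 26 tested receptors. FGFR2 and ROR1 met the minimum of 1 FPKM only in DMSO and TIE1 only in genistein, so the receptor shares are a description. The median log2 difference was -0.84 over the tested receptors and 0.05 over all tested genes. Negative differences made up 18 of the 26 receptors and 48.4% of all tested genes. In HepG2 RNA extracted from whole wells, fewer cells carrying a receptor and less RNA per cell cannot be told apart.

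EPHA2, a receptor of ephrin-A ligands that is known to be induced by ERK signalling, had the smallest p-value in the family. It lies on chromosome 1 from 16323420 to 16355151 in hg18 (ENSG00000142627). It stood at 33.0, 49.6 and 52.1 FPKM in DMSO 1, 2 and 3 and at 258, 238 and 225 FPKM in genistein 1, 2 and 3. Every genistein library was far above every DMSO library, and the genistein libraries differed little among themselves. EPHA2 rose by 2.42 ± 0.35 on the log2 scale (SE), or 5.35-fold on the FPKM + 1 scale (limma adjusted p = 0.00794). BMP6 libraries were at 44.7 and 89.4 FPKM, the first within the DMSO range and the second above it. EPHA2 was the single receptor that passed in each of the 16 alternatives run, with adjusted p up to 0.0448.

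AXL, the receptor of GAS6 and protein S in the TAM family, is on chromosome 19 from 46416948 to 46459510 in hg18 (ENSG00000167601). Its DMSO libraries were at 0, 2.85 and 2.77 FPKM. Genistein 1, 2 and 3 had 19.9, 15.7 and 20.0 FPKM, and BMP6 1 and 2 had 5.80 and 10.1 FPKM. The order of the groups was therefore DMSO, BMP6 and genistein, with no overlap between any pair of groups. AXL rose by 2.99 ± 0.59 on the log2 scale after genistein (limma adjusted p = 0.0191). The call was lost without DMSO 2, without any 1 genistein library and with a pseudocount of 0.1, at adjusted p up to 0.0797. The other TAM receptors did not pass: MERTK had a log2 difference of 0.05 with a 95% interval from -0.59 to 0.69, and TYRO3 one of -0.34.

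Both receptors that rose are shown by their promoter windows, beside that of EPHB4, the Eph receptor with the smallest p among those that fell. The windows run from 250 bases before to 50 bases after the RefSeq start of the gene, on the gene's strand, and come from RefSeq on GRCh38.p14, a build other than that of the expression files. Capitals mark the GC box (GGGCGG or CCGCCC), the cAMP response element (TGACGTCA) and the GC-rich SMAD motif of BMP target genes (GGCGCC), and no AP-1 motif (TGANTCA) was in these 3 windows. The positions are chr1:16156020-16156319 on the minus strand for EPHA2, chr19:41218973-41219272 on the plus strand for AXL, and chr7:100827474-100827773 on the minus strand for EPHB4.
EPHA2: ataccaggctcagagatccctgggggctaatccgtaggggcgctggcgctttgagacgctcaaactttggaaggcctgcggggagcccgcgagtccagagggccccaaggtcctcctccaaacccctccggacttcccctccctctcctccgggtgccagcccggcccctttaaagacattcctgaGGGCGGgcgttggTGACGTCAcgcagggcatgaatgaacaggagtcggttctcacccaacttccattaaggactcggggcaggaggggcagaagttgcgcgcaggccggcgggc
AXL: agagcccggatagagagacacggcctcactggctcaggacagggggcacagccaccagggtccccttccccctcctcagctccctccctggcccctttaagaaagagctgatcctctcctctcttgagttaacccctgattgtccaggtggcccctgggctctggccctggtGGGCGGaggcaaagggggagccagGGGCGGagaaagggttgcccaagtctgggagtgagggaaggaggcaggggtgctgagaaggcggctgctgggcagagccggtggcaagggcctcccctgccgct
EPHB4: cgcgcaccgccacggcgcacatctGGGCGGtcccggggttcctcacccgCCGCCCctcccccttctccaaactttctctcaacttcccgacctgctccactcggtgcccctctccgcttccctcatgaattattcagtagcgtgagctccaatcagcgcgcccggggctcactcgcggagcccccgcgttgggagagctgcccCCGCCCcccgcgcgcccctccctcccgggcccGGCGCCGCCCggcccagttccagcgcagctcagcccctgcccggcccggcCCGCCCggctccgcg
EPHA2 held 1 GC box 64 bases before the start and 1 cAMP response element 51 bases before it. AXL held 2 GC boxes and neither of the other motifs. EPHB4 held 5 GC boxes, 1 of them overlapping its SMAD motif. A window was found for 51 of the 57 receptors, and none for ERBB3, FGFR1, FLT4, INSRR, EPHA10 or STYK1.

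Both strands were searched for each motif, in the receptors and in all 35116 windows of the same length. Each receptor was represented by 1 window, whereas all windows were taken without limit to tested genes and without matching for GC content. GC boxes were in 19 of 24 tested receptors with a window and in all 8 that rose or fell, against 45% of all windows. The SMAD motif was in 8 of the 24 and in 5 of the 8, against 19.2% of all windows. AP-1 was in 2 of the 24 and in none of the 8, against 7.71%. The cAMP response element was in 1 of the 24, EPHA2, against 1.85%. Of all 51 receptor windows, GC boxes were in 38, the SMAD motif in 11, AP-1 in 5 and the cAMP response element in 2. The second receptor with that element was FLT1, which was listed at 0 in every library. These are matches of letters and not binding sites.

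EPHB4, the receptor of the transmembrane ligand ephrin-B2, fell in the same genistein libraries in which EPHA2 rose. It is on chromosome 7 from 100238123 to 100263079 in hg18 (ENSG00000196411). DMSO 1, 2 and 3 had 169, 116 and 109 FPKM, and genistein 1, 2 and 3 had 45.9, 38.5 and 38.8 FPKM. The highest genistein library was far below the lowest DMSO library. EPHB4 fell by 1.63 on the log2 scale (SE 0.30), 3.10-fold on the FPKM + 1 scale (limma adjusted p = 0.0150). Omitting DMSO 2, genistein 2 or genistein 3 ended the call, with adjusted p up to 0.0744.

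EPHA1, another ephrin-A receptor (ENSG00000146904; hg18, chromosome 7, 142798331 to 142816107), was a low transcript, at 14.5, 14.1 and 18.2 FPKM in DMSO. After genistein it stood at 5.99, 3.07 and 5.82 FPKM, below every DMSO library. It fell by 1.51 on the log2 scale (SE 0.40, limma adjusted p = 0.0446), and leaving out any single library of either group ended the call, with adjusted p up to 0.121. So did a pseudocount of 0.1 and the filter at a mean of 5 FPKM (adjusted p = 0.0663 and 0.0531). Among Eph receptors above 1 FPKM, EPHA2 thus rose while EPHB4 and EPHA1 fell.

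In the EGF receptor family ERBB3 fell (ENSG00000065361; hg18, chromosome 12, 54760159 to 54783395). Its genistein libraries stood at 279, 226 and 261 FPKM, all below the 517 FPKM of the lowest DMSO library. The change was -1.25 ± 0.29 (log2, SE), 2.38-fold lower on the FPKM + 1 scale (limma adjusted p = 0.0295). Omitting DMSO 2, DMSO 3 or a single genistein library ended the call (adjusted p up to 0.115), and so did omitting DMSO 1, genistein 2 and BMP6 1 together.
ERBB2, the partner without a known ligand, stood at 258, 141 and 156 FPKM in DMSO and at 89.7, 68.9 and 85.0 FPKM after genistein. Its libraries did not overlap, but its log2 difference of -1.14 ± 0.33 did not pass (limma adjusted p = 0.0596). It passed when only the compared groups were fitted (adjusted p = 0.036). EGFR overlapped between the groups, with 12.4 to 36.4 FPKM in DMSO and 22.3 to 35.5 FPKM after genistein.

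INSR, the insulin receptor, is on chromosome 19 from 7063266 to 7245011 in hg18 (ENSG00000171105). It varied little in DMSO, at 137, 146 and 146 FPKM. Genistein 1, 2 and 3 had 69.5, 44.9 and 57.7 FPKM, and BMP6 1 and 2 had 62.5 and 75.4 FPKM. All 5 treated libraries were thus below all DMSO libraries. INSR fell by 1.32 on the log2 scale after genistein (SE 0.28, limma adjusted p = 0.0243), 2.50-fold on the FPKM + 1 scale. Omitting DMSO 2, DMSO 3 or a single genistein library ended the call, with adjusted p up to 0.0973. IGF1R, its close relative and the receptor of IGF1 and IGF2, overlapped at 33.9 to 42.2 FPKM in DMSO and 24.8 to 41.5 FPKM after genistein. Its log2 difference was -0.23, with a 95% interval from -1.09 to 0.63.

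PTK7 (ENSG00000112655; hg18, chromosome 6, 43152007 to 43237435) stood at 147, 243 and 292 FPKM in DMSO and at 87.0, 64.8 and 66.3 FPKM after genistein. DMSO 1 was the lowest of its group and still above every genistein library. PTK7 fell by 1.59 on the log2 scale (SE 0.37, limma adjusted p = 0.0311), 3.00-fold on the FPKM + 1 scale. Without DMSO 2, DMSO 3 or any 1 genistein library the call was lost, at adjusted p up to 0.119. RYK, another WNT co-receptor with an inactive kinase, had a log2 difference of 0.41 ± 0.35 and did not pass. ROR1, a WNT5A receptor, was between 1.28 and 2.17 FPKM in DMSO and listed at 0 in all genistein libraries (limma adjusted p = 0.0742). It passed with a pseudocount of 0.1, with no filter and with no intensity trend (adjusted p = 0.0456, 0.0281 and 0.0288).

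LMTK3, a lemur tail kinase (ENSG00000142235; hg18, chromosome 19, 53680340 to 53708258), stood at 28.1, 17.7 and 14.9 FPKM in DMSO. Genistein libraries were at 3.25, 2.88 and 1.41 FPKM and BMP6 libraries at 1.18 and 7.52 FPKM, so no treated library reached the DMSO range. LMTK3 fell by 2.59 on the log2 scale after genistein (SE 0.59, limma adjusted p = 0.0289). Leaving out any single library of either group ended the call, with adjusted p up to 0.113, as did a pseudocount of 0.1. Its relative LMTK2 went the other way in value, at 0, 4.03 and 3.99 FPKM in DMSO and 6.80 to 12.1 FPKM after genistein, and did not pass (adjusted p = 0.136). AATK, the other relative, was dominated by DMSO 1, at 96.6 FPKM against 23.8 and 14.3 in DMSO 2 and 3.

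Of the 4 FGF receptors FGFR2 alone passed, and all 4 had negative log2 differences. Differences between them were not tested. FGFR2 (ENSG00000066468; hg18, chromosome 10, 123223889 to 123347962) was called lower after genistein (limma adjusted p = 0.0388), but it was low in DMSO, at 2.27, 2.16 and 2.29 FPKM. It was listed at 0 in all genistein and both BMP6 libraries, so no fold is given, and the call was lost without DMSO 2, DMSO 3 or any 1 genistein library, at adjusted p up to 0.144. FGFR2 met the minimum of 1 FPKM only in DMSO, so the minimum itself favours a difference for it. FGFR1 stood at 78.6, 69.0 and 129.7 FPKM in DMSO and at 50.1, 40.1 and 60.2 FPKM after genistein, without overlap (log2 difference -0.83 ± 0.34, adjusted p = 0.149). FGFR3 also did not overlap, at 232, 155 and 339 FPKM after genistein, and did not pass (-0.84 ± 0.36, adjusted p = 0.158). FGFR4 overlapped, at 371, 322 and 298 FPKM after genistein, with a log2 difference of -0.25 and a 95% interval from -0.98 to 0.48. The data do not exclude a change of FGFR4 within that interval.

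Of the receptors that did not pass, DDR1 and ERBB2 were nearest to the threshold. DDR1 stood at 79.8, 90.1 and 91.6 FPKM in DMSO and at 51.7, 44.2 and 48.0 FPKM after genistein, a log2 difference of -0.85 ± 0.26 (limma adjusted p = 0.0704). DDR1 passed with median-of-ratios scaling and when only the compared groups were fitted (limma adjusted p = 0.0496 and 0.0393). MET overlapped, with 23.0 to 40.6 FPKM in DMSO and 22.2 to 40.5 FPKM after genistein (log2 difference 0.03, 95% interval from -0.92 to 0.97). In all, 12 of the 26 tested receptors had every genistein library below every DMSO library and 3 had every one above. Among all tested genes those shares were 20.6% and 23.3%.

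**Figure D2:**
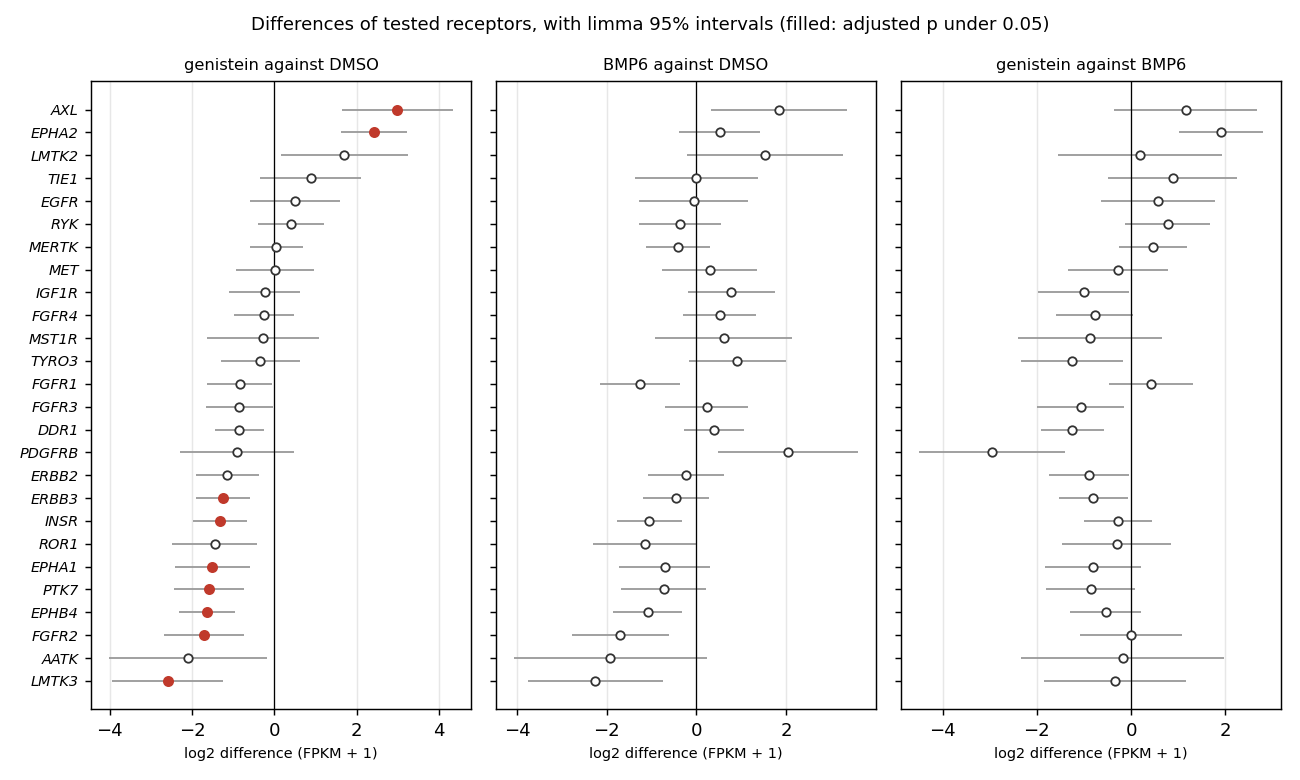
Log2 difference of each tested receptor on the log2(FPKM + 1) scale (horizontal axis) in the 3 comparisons, with 95% intervals from limma. Filled points passed an adjusted p of 0.05: 9 receptors for genistein against DMSO and none in the other panels.

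BMP6 against DMSO asks whether the ligand of another receptor class is accompanied by a different set of these receptors. None of the 26 tested receptors passed limma's adjusted threshold, and 7 had an unadjusted p under 0.05, 2 of them higher and 5 lower. Of all tested genes 0.34% were called higher and 0.498% lower in this comparison, and 18.9% had an unadjusted p under 0.05. The receptors' median log2 difference was -0.15, beside -0.03 over all tested genes. Without DMSO 1 these medians were 0.01 over the receptors and -0.19 over all tested genes. This comparison and the one with genistein share the DMSO libraries.

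PDGFRB, the receptor of PDGF-B, had the highest values of any group in BMP6. It stood at 4.91, 1.88 and 3.64 FPKM in DMSO and at 19.5 and 14.3 FPKM in BMP6 1 and 2. Both BMP6 libraries were above all others, and genistein libraries were at 2.92, 0 and 2.08 FPKM. The log2 difference of 2.05 ± 0.68 did not pass (limma adjusted p = 0.177). Stellate cells and fibroblasts are known for PDGFRB, and of the 7 markers of those cells 5 were at 0 in every library. The other 2 were RGS5, listed at 0 in both BMP6 libraries, and ACTA2, which stood at 248 to 263 FPKM in DMSO and 129.9 and 247 FPKM in BMP6.

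AXL was the other receptor with a positive difference at an unadjusted p under 0.05 (log2 difference 1.83 ± 0.66, limma adjusted p = 0.199). INSR had a log2 difference of -1.05 ± 0.32, EPHB4 of -1.09 ± 0.33, FGFR1 of -1.25 ± 0.38 and LMTK3 of -2.25 ± 0.66, at adjusted p between 0.146 and 0.156. EPHB4 stood at 54.8 and 65.6 FPKM and FGFR1 at 39.9 and 33.8 FPKM in BMP6 1 and 2, below every DMSO library. IGF1R was 94.1 FPKM in BMP6 1 and 45.3 in BMP6 2, and FGFR4 was 428 and 736 FPKM, so the BMP6 pair differed widely for these genes. Of the 26 tested receptors, 6 had both BMP6 libraries above all DMSO libraries and 10 had both below, beside 16.1% and 17.3% of all tested genes. LMTK3 passed when BMP6 2 was left out (adjusted p = 0.0237), and FGFR2 with no filter or no intensity trend (adjusted p = 0.0497 and 0.0487).

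Genistein against BMP6 compares the treatments directly. No receptor passed limma's adjusted threshold, and 8 had an unadjusted p under 0.05, 1 higher and 7 lower after genistein. Of all tested genes 0.64% were called higher and 0.75% lower, and 14.7% had an unadjusted p under 0.05. The gene of these with a positive difference was EPHA2, at 1.91 ± 0.39 on the log2 scale (limma adjusted p = 0.0631). It passed with median-of-ratios scaling (adjusted p = 0.0124) and without BMP6 2 (0.0271). PDGFRB had a difference of -2.95 ± 0.68 and DDR1 of -1.25 ± 0.29 (adjusted p = 0.0863 and 0.0894), and neither overlapped between the treatments. DDR1 stood at 122 and 109 FPKM in BMP6, above all DMSO libraries, while its genistein libraries were below them. Genistein libraries were all above both BMP6 libraries for 5 of the 26 tested receptors and all below for 12, beside 16.3% and 12.6% of all tested genes.

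The composition of the family differed between groups, as the plot of summed FPKM by gene shows. Summed over the 57 receptors, DMSO libraries held 2509, 2674 and 2708 FPKM, genistein libraries 1810, 1465 and 1753 FPKM, and BMP6 libraries 2260 and 2611 FPKM. With median-of-ratios scaling between libraries the sums were 2423 to 3032, 1445 to 1812 and 2192 to 3103, so the genistein sums stayed the lowest in either scale. As a share of total FPKM they were not all the lowest, at 0.115% to 0.135% in DMSO, 0.0620% to 0.0942% after genistein, and 0.133% and 0.0841% in BMP6 1 and 2. ERBB3 made up 19.1% to 27.9% of the sum in DMSO, 14.9% to 15.5% after genistein and 16.1% and 20.9% after BMP6. EPHA2 made up 1.31% to 1.93% in DMSO, 12.9% to 16.2% after genistein and 1.98% and 3.43% after BMP6. EPHA2 ranked 14th, 11th and 10th among the receptors in DMSO 1, 2 and 3, and 3rd, 2nd and 4th in genistein 1, 2 and 3. FGFR3 and FGFR4 together made up 27.3% to 35.6% in DMSO, 32.6% to 36.3% after genistein and 39.0% and 47.9% after BMP6. The highest receptor was ERBB3 in every DMSO library and in BMP6 1, FGFR4 in genistein 1, genistein 2 and BMP6 2, and FGFR3 in genistein 3.

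**Figure D3:**
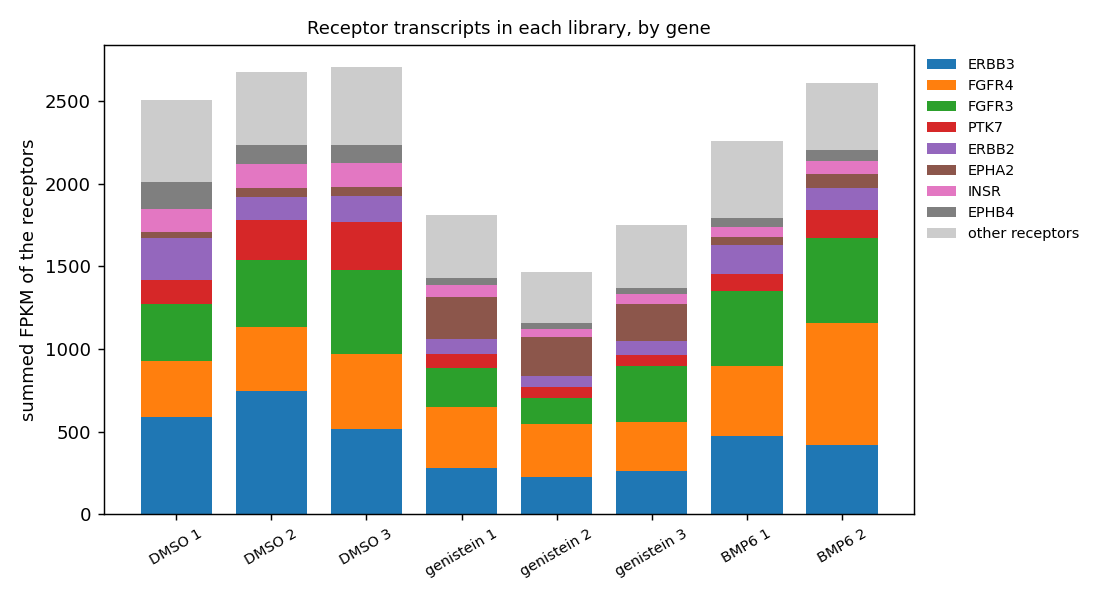
Summed FPKM of the 57 receptors in each library (vertical axis, from 0), divided by gene for the 8 receptors with the highest mean. Each bar is 1 library. Genistein libraries hold 1465 to 1810 FPKM, below the 2509 to 2708 FPKM of DMSO, with a larger EPHA2 part and a smaller ERBB3 part.

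Ligands of the receptors were examined from a list of 70, of which 67 had a row, 38 were listed at 0 throughout and 26 were tested. After genistein 4 rose and 3 fell, at the threshold that 6.11% and 5.96% of all tested genes passed in those directions. The median log2 difference was -0.14. AREG, which encodes the EGFR ligand amphiregulin, stood at 2.53, 3.97 and 9.03 FPKM in DMSO and at 170.4, 136 and 115 FPKM after genistein. EREG, the epiregulin gene, was listed at 0 in all DMSO and BMP6 libraries and stood at 7.40, 10.3 and 16.9 FPKM after genistein (limma adjusted p = 0.00587). The AREG change was 4.64 ± 0.56 (log2, SE, limma adjusted p = 0.00486), and AREG passed in all 16 alternatives for this comparison. EREG passed in the 15 that could test it, since its mean is under the 5 FPKM filter. It met the minimum of 1 FPKM only in genistein libraries, so the minimum itself favours a difference for it. PDGFA, a PDGF chain, rose from 2.75 ± 2.49 to 29.9 ± 10.5 FPKM (SD, n = 3 each), and VEGFA, the endothelial growth factor, from 151 to 206 FPKM in DMSO to 355 to 464 FPKM (limma adjusted p = 0.0220 and 0.0360). The VEGF receptors FLT1, KDR and FLT4 and the PDGF receptor PDGFRA were listed at 0 in every library.

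FGF17, an FGF8 subfamily ligand, fell after genistein from 43.8 ± 5.95 to 5.74 ± 1.98 FPKM (limma adjusted p = 0.00925), and IL34, a CSF1R ligand, and EFNA3, which encodes ephrin-A3, also fell. FGF17 was the single listed ligand called after BMP6, at 1.70 and 4.23 FPKM (log2 difference -3.57 ± 0.48, limma adjusted p = 0.0238). Omitting DMSO 2, DMSO 3, genistein 3 or BMP6 1 ended that call, with adjusted p up to 0.149, and so did fitting only the compared groups (adjusted p = 0.0765). EFNA1, an EPHA2 ligand, was at 138 to 272 FPKM in DMSO and 119 to 232 FPKM after genistein and did not pass. EFNB2, the EPHB4 ligand, was above 0 in DMSO 1 alone, at 1.64 FPKM. Of the AXL ligands GAS6 was listed at 0 in every library and PROS1, the gene of protein S, was at 58.0 to 99.2 FPKM in DMSO and 10.5 to 36.3 FPKM after genistein, without passing. AREG, EREG and PDGFA were also higher after genistein than after BMP6 (limma adjusted p = 0.00869, 0.0197 and 0.0257). Omitting genistein 1 ended all 3 of these calls, omitting DMSO 2, genistein 3 or BMP6 1 ended those of EREG and PDGFA, and omitting genistein 2 ended that of PDGFA. Against DMSO, the calls of VEGFA, IL34 and EFNA3 were each lost without any single library of either group, and that of PDGFA without DMSO 2 or any 1 genistein library. Other settings also ended them: a pseudocount of 0.1 for PDGFA and EFNA3, no intensity trend for VEGFA, and the filter at a mean of 5 FPKM for IL34 and EFNA3. FGF17 lost its call without DMSO 2, at adjusted p = 0.0561.

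Attenuators, which end receptor signalling, numbered 31, of which 30 were tested. After genistein 6 rose and none fell, beside 6.11% and 5.96% of all tested genes. An unadjusted p under 0.05 was seen for 13 of the 30, 11 with a positive and 2 with a negative difference, beside 30% of all tested genes. Those that rose were SPRY4, DUSP5, DUSP4, ERRFI1, SOCS3 and PTPN2. ERRFI1, a direct inhibitor of the EGF receptor family, stood at 182, 179 and 212 FPKM in DMSO and at 692, 631 and 577 FPKM after genistein (log2 change 1.72 ± 0.27, limma adjusted p = 0.00966). SOCS3 likewise met the minimum of 1 FPKM only in genistein libraries. This inhibitor of cytokine and insulin receptor signalling reached 4.01 ± 0.157 FPKM after genistein (SD, n = 3), from values listed at 0 in every DMSO library. PTPN2 is a phosphatase of the insulin and EGF receptors, and it passed narrowly (adjusted p = 0.0492). DUSP6, another ERK phosphatase, had a log2 difference of -0.28 ± 0.36 and did not pass. The median log2 difference over the tested attenuators was 0.79. The count of 6 was 2 to 8 with 1 library left out: SPRY4 and DUSP5 passed in all 16 alternatives, and DUSP4 and ERRFI1 lost the call without DMSO 2 or genistein 3. SOCS3 lost it without DMSO 2, genistein 1 or genistein 3, and PTPN2 without any 1 DMSO or genistein library.

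Signal transducers numbered 38, of which 36 were tested, and after genistein 2 rose and 2 fell, 5.56% each way beside 6.11% and 5.96% of all tested genes. GRB14, which fell, met the minimum of 1 FPKM in at least 2 libraries only through DMSO. GAB2, an adaptor that links receptors to PI3 kinase and SHP2, stood at 5.55, 8.58 and 13.5 FPKM in DMSO and at 67.8, 62.6 and 82.7 FPKM after genistein (log2 change 2.88 ± 0.41, limma adjusted p = 0.00766). GRB10, an adaptor that restrains INSR and IGF1R, rose from 13.8 ± 2.64 to 58.0 ± 15.6 FPKM, and its relative GRB14 fell from 9.12 ± 3.14 to 0.577 ± 0.999 FPKM (SD, n = 3 each). PIK3R2, a regulatory subunit of PI3 kinase, fell from 195 ± 28.2 to 55.9 ± 10.5 FPKM. GAB2 passed in all 16 alternatives. GRB10, GRB14 and PIK3R2 each lost the call without DMSO 2 or genistein 3 and without other single libraries, at adjusted p up to 0.0873.

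Cytoplasmic tyrosine kinases, which lack a receptor part, numbered 32, of which 31 had a row and 18 were tested. FER rose after genistein, from 6.09, 9.65 and 5.78 to 26.4, 36.6 and 29.1 FPKM (log2 change 1.97 ± 0.39, limma adjusted p = 0.0183), and none fell. Those calls are 5.56% higher and 0% lower, beside 6.11% and 5.96% of all tested genes. FER lost the call without DMSO 2, DMSO 3 or any 1 genistein library, at adjusted p up to 0.0778. The median log2 difference of this class was -0.26, beside -0.84 for the receptors, and the difference between the classes was not tested. After BMP6 none of the tested attenuators, transducers or cytoplasmic kinases passed limma's threshold, and 8, 4 and 5 of them had an unadjusted p under 0.05. Those are 26.7%, 11.1% and 27.8% of the tested genes of each list, beside 18.9% of all tested genes. Between the treatments the attenuator DUSP5 was higher after genistein (limma adjusted p = 0.00541), and no transducer or cytoplasmic kinase passed, with 6 and 2 at an unadjusted p under 0.05 (16.7% and 11.1%, beside 14.7% of all tested genes).

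**Figure D4:**
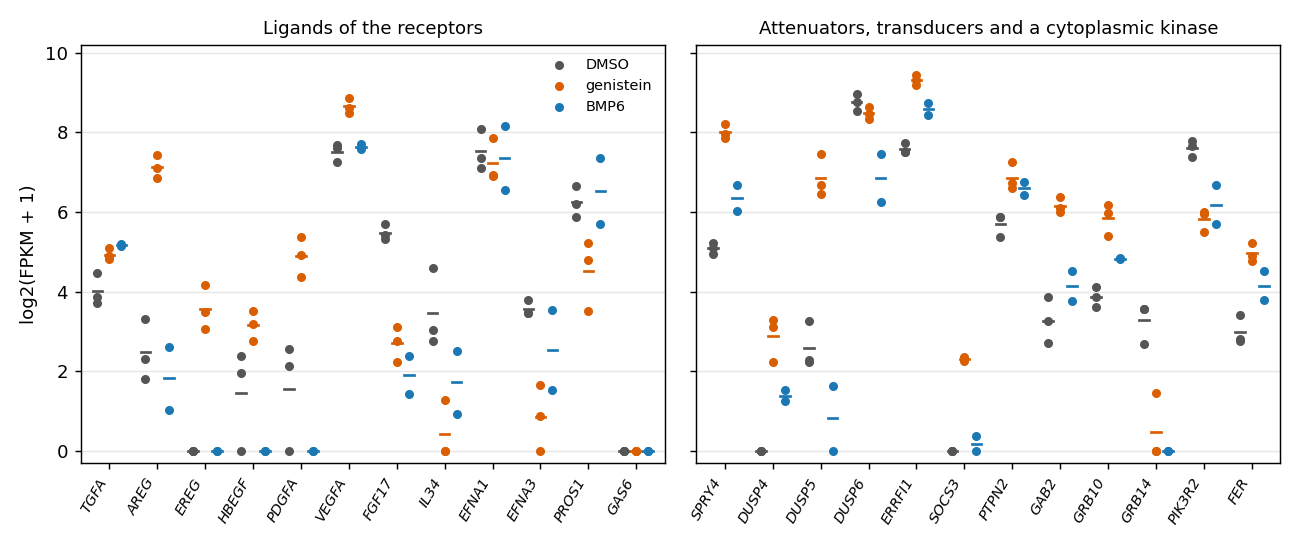
Levels in every library of ligands (left) and of attenuators, transducers and FER (right), as log2(FPKM + 1) on the vertical axis, with points for libraries and bars for group means. AREG stands at 115 to 170.4 FPKM in genistein libraries against 2.53 to 9.03 in DMSO, and GAS6 is listed at 0 throughout.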

How the data were processed

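PolyA RNA of 8 HepG2 libraries was sequenced on a Genome Analyzer II, per the labels' protocols. The authors deposited FPKM with an interval for each Ensembl gene. The submitters' processing notes name Cufflinks 1.0.3, TopHat 1.1.0, Bowtie, Cuffdiff and the build hg18, and how libraries were scaled to each other is unstated there. Among the lowest values of each library, FPKM and transcript length in a later annotation correlated at -0.159 to -0.0301 (Spearman). That correlation does not settle whether values move in steps of whole reads. As the values are FPKM and not counts, no count model, counting interval or detection floor was used, and depth is unknown. Gene starts were converted to count from 1.

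Symbols matched 19069 of 20897 identifiers. The 12661 genes reaching 1 FPKM in 2 or more libraries were fitted on log2(FPKM + 1) in 1 limma model with an intensity trend over all libraries (limma 3.58.1, R 4.3.3), two-sided. This scale understates changes of low genes. The fit was tested on simulated data whose changes were larger than that of any called receptor. That test says nothing on smaller changes. The receptors, related lists and markers were chosen with earlier results of these data known. Named were receptors past the threshold, the 10 with the highest mean FPKM, those listed at 0 and up to 3 others a family. Up to 4 called genes per related list and comparison were named, and ligands of the called receptors EPHA2, EPHB4 and AXL. VEGFA, IL34, SOCS3, PTPN2, DUSP6 and the single markers were named after their values were seen. Groups came from the sample titles. The alternatives were another pseudocount, other filters, scaling, variance models and sample sets, a replicate block and leaving out libraries, and those for the related lists, the markers and the remaining tested receptors were added after seeing the data.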

Additional observations from a re-analysis of the deposited data

How the results depend on the processing

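For genistein against DMSO the 2 receptors called higher were 1 with a pseudocount of 0.1 and 1 to 2 with 1 library left out, and the 7 called lower were 0 to 9 with 1 library left out. The lower count was 0 without DMSO 2, genistein 2 or genistein 3, 1 without DMSO 3 or genistein 1, 5 without DMSO 1 and 9 without either BMP6 library. With DMSO 1, genistein 2 and BMP6 1 left out together, 3 were higher and 8 lower. For BMP6 against DMSO, 1 receptor was called lower with no filter and with no intensity trend, and 0 to 1 with 1 library left out (without BMP6 2). For genistein against BMP6, 1 was called higher with median-of-ratios scaling and 0 to 1 with 1 library left out (without BMP6 2). Scaling by median of ratios shifted the all-gene median log2 difference by -0.101 (genistein against DMSO) and -0.155 (genistein against BMP6). Over all alternatives 229 to 2780 genes were called for genistein against DMSO (1527 as reported). For BMP6 against DMSO the range was 4 to 1999 (106 as reported), and between the treatments it was 7 to 883 (176 as reported). For genistein against DMSO, calls higher and lower ranged over 2 to 4 and 0 to 6 ligands, 1 to 4 and 0 to 3 transducers, 2 to 10 and 0 to 2 attenuators, and 0 to 2 and 0 to 2 cytoplasmic kinases.

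The labels do not say that replicate numbers pair libraries. Deviations of same-numbered DMSO and genistein libraries correlated at -0.146, -0.0652 and -0.00459, and BMP6 libraries were not checked. As deviations from means of only 3 libraries, these values cannot decide whether same-numbered libraries share a culture or batch. With the number as a replicate block, 1 receptor was called higher and 0 lower for genistein against DMSO, and 414 genes in all. No DMSO or genistein library correlated best with its own number. For the 9 called receptors the alternatives gave 143 values, of which 91 kept the call, 52 (36.4%) lost it and 0 reversed. FGFR2 could not be tested at a mean of 5 FPKM. Among the differences of the 26 tested receptors that were not called, 18 of 1076 values passed. Depth is unknown, so receptors listed at 0 cannot be given an upper limit.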
